A study of Homo sapiens with 18 samples.

Results

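The genes described here are 10 markers and regulators of the epithelial and mesenchymal states: the mesenchymal structural genes VIM, CDH2 and CDH11, the transcription factors ZEB1, ZEB2, SNAI2 and TWIST1, and the epithelial genes CLDN7, ELF3 and EPCAM. They were chosen by symbol, with earlier results of these data known, and all 10 were found among the 57820 gene identifiers of the count table. RNA came from MDA-MB-231, a human triple-negative breast cancer line of mesenchymal type with the labelled genotype WT, maintained in L-15 medium with fetal bovine serum. Cells received a control siRNA (siCtrl) or 1 of 2 independent siRNAs against RagC (siRagC1 or siRagC2) by lipofection for 72 hours, with 6 biological replicates per group. RagC, encoded by RRAGC, is a small GTPase that helps to tether mTORC1 to lysosomes, and the study silenced it to find genes altered when mTORC1 is repressed. All 18 libraries come from 1 cell line, and both siRNAs were compared with the same control libraries.

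Epithelial cells are held together by tight and adherens junctions, which are built from claudins, cadherins and their partners. In the epithelial-mesenchymal transition, transcription factors of the SNAI, ZEB and TWIST families bind E-box sequences in the regulatory regions of epithelial genes and repress them, while intermediate filaments of vimentin and cadherins of mesenchymal cells accumulate. Breast cancer lines lie at different points between these states, and MDA-MB-231 is a common model of the mesenchymal end.

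Total counts ran from 14.8 M to 71.6 M per library. RRAGC itself was measured first as a check of the labels. It lay between 60.6 and 67.9 counts per 1 M counts (CPM) in siCtrl, between 12.3 and 31.9 CPM in siRagC1 and between 19.3 and 40.8 CPM in siRagC2, with no overlap between control and silenced libraries. The library codes fall into series D1103 (replicates 1 and 2 of each group) and D1221 (replicates 3 to 6). As a share of the same-numbered control, RRAGC in siRagC1 averaged 23.95% in D1103 and 45.6% in D1221, and in siRagC2 31.9% and 51.0%. Among markers of the line's state, CD44 stood at 926 ± 102 CPM, AXL at 1370 ± 63.5 CPM and FN1 at 812 ± 157 CPM in siCtrl (SD, n = 6), whereas the luminal markers ESR1, PGR and FOXA1 and the basal keratins KRT5 and KRT14 each averaged under 0.05 CPM. The luminal marker GATA3 stood at 8.69 ± 1.13 CPM and the basal marker TP63 at 0.627 ± 0.185 CPM.

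Of the 10 genes, 9 passed the filter on low counts and were tested. With siRagC2, CLDN7, which encodes a claudin of epithelial tight junctions, and ELF3, which encodes an ETS-family transcription factor of epithelial cells, rose, and none of the 9 fell. With siRagC1, 0 of the 9 passed the test. CLDN7 did pass (adjusted p = 0.0214, edgeR) when the replicate number, taken to pair the libraries, was a block in the fit. None of the 6 tested mesenchymal genes passed with either siRNA. Over all 15307 tested genes, 2.04% passed with siRagC1 and 3.23% with siRagC2, and 5.64% with siRagC1 under the block. At such shares, 0 of 9 or 0 of 6 is no result about the set.

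Short stretches of sequence upstream of the genes that rose are shown because the E-box core CACCTG, with its reverse complement CAGGTG, is the site class bound by SNAI and ZEB factors. They were read from the RefSeq promoter windows on GRCh38.p14, in the 250 bases before each annotated start, 5′ to 3′ on the strand of the gene, with the motif in capitals.
ELF3 site 1: gaatatgcaaatCACCTGgggccaggagcc
CLDN7 site 1: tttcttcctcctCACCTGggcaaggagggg
CLDN7 site 2: cgacttccggttCAGGTGagtgtcccttcg
CLDN7 site 3: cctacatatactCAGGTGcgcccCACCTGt
The ELF3 stretch is chr1:202010455-202010484 on the plus strand, and its motif begins 120 bases before the start. The CLDN7 stretches lie on the minus strand at chr17:7262635-7262664, chr17:7262596-7262625 and chr17:7262481-7262510, with first motif bases 174, 135 and 20 bases before the start. In GENCODE 29 these stretches also overlap exons of longer transcripts of the same genes. Of the 2 CLDN7 windows in the table, the one shown held 4 copies of the motif and the one at the other start held 0. Over all 35116 RefSeq windows of this length, 17.5% held at least 1 copy and 0.122% held at least 4. The mark of 4 is the count of the CLDN7 window shown, so the 0.122% is no test of that window. Of the 10 genes, 6 were matched in the promoter table (CDH2, CLDN7, ELF3, VIM, ZEB1 and ZEB2). Of these, 3 had a copy in at least 1 window: CLDN7 (1 of 2 windows), ELF3 (1 of 1) and ZEB1 (2 of 7). The 17.5% is a share of windows, so it is no background for this count of genes. CDH11, EPCAM, SNAI2 and TWIST1 were not matched. A motif match describes the letters of the window and does not show binding.

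Levels were compared between genes as CPM per kilobase of exon, with exon lengths from GENCODE 29. In siCtrl, VIM, the intermediate filament protein of mesenchymal cells, stood at 840 ± 119 CPM per kb (SD, n = 6), far above every other gene of the set. CLDN7 at 13.8 ± 1.43 and ZEB1 at 13.3 ± 0.984 CPM per kb came next and did not differ beyond their spread. SNAI2 at 6.66 ± 0.480, EPCAM at 6.21 ± 0.753 and CDH11 at 5.61 ± 0.849 CPM per kb were also within each other's spread. ZEB2 followed at 0.905 ± 0.0583, ELF3 at 0.295 ± 0.0656 and CDH2 at 0.0695 ± 0.0304 CPM per kb. The order within those close groups turned with gene length: by the longest coding transcript ZEB1 stood at 18.4 ± 1.36 and CLDN7 at 17.9 ± 1.86 CPM per kb, and CDH11 at 10.9 ± 1.65 came ahead of SNAI2 at 9.30 ± 0.670 and EPCAM at 9.07 ± 1.10. An epithelial claudin and a repressor of epithelial genes were thus present at similar levels per length in the same cultures, and bulk RNA does not show whether in the same cells.

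**Figure D1:**
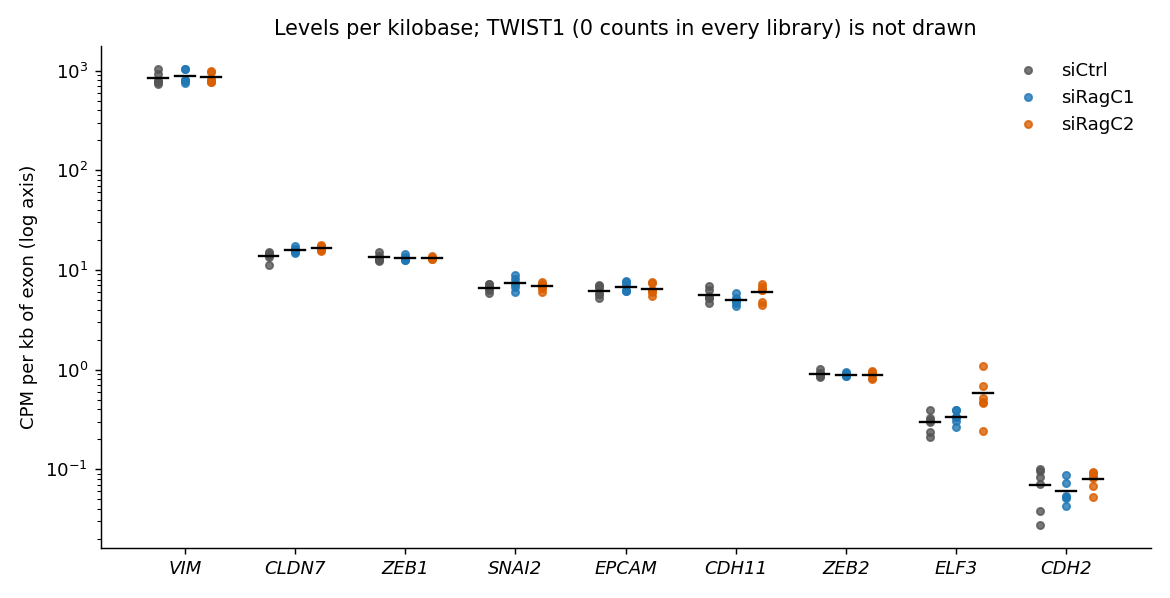
CPM per kilobase of exon (log axis) for the 9 genes with counts, ordered by their siCtrl mean. Each point is 1 library, colours mark the 3 groups (n = 6 each) and black bars are group means. VIM lies at 840 CPM per kb in siCtrl and CDH2 at 0.0695, and apart from ELF3 in siRagC2 the groups of each gene lie close together.

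TWIST1, which encodes a basic helix-loop-helix factor of the transition, had 0 counts in all 18 libraries. Over the 566.7 M counts in all, a count of 0 allows a level of up to 0.00529 CPM (3 counts), and per library of up to 0.0415 to 0.202 CPM, which covers counting error only. Its overlapping antisense gene AC003986.2 was also listed at 0. CDH2, which encodes N-cadherin, was near the floor, with 51 counts in siCtrl, 68 in siRagC1 and 71 in siRagC2 over 6 libraries each. CDH2 ran from 0.137 to 0.501 CPM in siCtrl (median 0.383), from 0.210 to 0.430 CPM in siRagC1 (median 0.264) and from 0.263 to 0.462 CPM in siRagC2 (median 0.413). The groups overlapped, and the 95% intervals of the log2 fold change, -0.70 to 0.44 for siRagC1 and -0.42 to 0.71 for siRagC2, leave changes of moderate size in either direction undetectable at this depth. The counts of CDH2 and TWIST1, both common labels of the mesenchymal state, were therefore at or near 0 in these libraries, while those of VIM were high.

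Among the mesenchymal structural genes, VIM ran from 3790 to 5378 CPM in siCtrl (median 4078), from 3850 to 5382 CPM in siRagC1 (median 4180) and from 3961 to 5100 CPM in siRagC2 (median 4149). The groups overlapped throughout, and in every group both D1103 libraries lay above all 4 D1221 libraries. The log2 fold changes were 0.05 ± 0.04 (SE) for siRagC1 and 0.02 ± 0.04 for siRagC2, with adjusted p of 0.473 and 0.801 (edgeR quasi-likelihood F test, Benjamini-Hochberg over 15307 genes, n = 6 per group). Their 95% intervals, -0.02 to 0.12 and -0.05 to 0.09, were narrow. CDH11, which encodes a cadherin of mesenchymal cells and osteoblasts, ran from 61.7 to 92.6 CPM in siCtrl (median 71.0), from 57.5 to 78.8 CPM in siRagC1 (median 66.6) and from 60.1 to 95.8 CPM in siRagC2 (median 83.7). It was below the same-numbered control in 5 of 6 replicates with siRagC1 and in 3 of 6 with siRagC2. The log2 fold changes were -0.15 ± 0.07 (adjusted p = 0.286, edgeR) and 0.09 ± 0.07 (adjusted p = 0.561), and neither passed.

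The transcription factors changed little on the log2 scale. ZEB1, a zinc-finger repressor of epithelial genes, ran from 107 to 131 CPM in siCtrl (median 113), from 109 to 124 CPM in siRagC1 (median 111) and from 111 to 119 CPM in siRagC2 (median 113). ZEB2, its paralog, ran from 21.1 to 25.1 CPM (median 22.6), from 21.5 to 23.9 CPM (median 22.1) and from 20.02 to 24.4 CPM (median 22.5) in the same order of groups. For both genes the 3 groups overlapped and the medians differed by less than the spread within siCtrl. The log2 fold changes of both genes with both siRNAs were -0.02, with SE of 0.04 for ZEB1 and 0.06 for ZEB2 and adjusted p between 0.850 and 0.901 (edgeR). The 95% intervals lay within -0.13 and 0.09 for ZEB2 and within -0.10 and 0.06 for ZEB1.

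SNAI2, also called SLUG, a zinc-finger repressor of E-cadherin, ran from 20.1 to 24.3 CPM in siCtrl (median 22.6), from 20.5 to 30.02 CPM in siRagC1 (median 24.9) and from 20.3 to 25.9 CPM in siRagC2 (median 23.003). In siRagC1 it lay above the same-numbered control in 6 of 6 replicates, by a ratio of 1.02 to 1.24, although the groups overlapped. The log2 fold change was 0.15 ± 0.06 with siRagC1 (adjusted p = 0.227, edgeR) and 0.04 ± 0.06 with siRagC2 (adjusted p = 0.821), so neither passed. Without replicate 6 of each group the adjusted p for siRagC1 was 0.0621, within a range of 0.0593 to 0.879 over all alternatives.

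**Figure D2:**
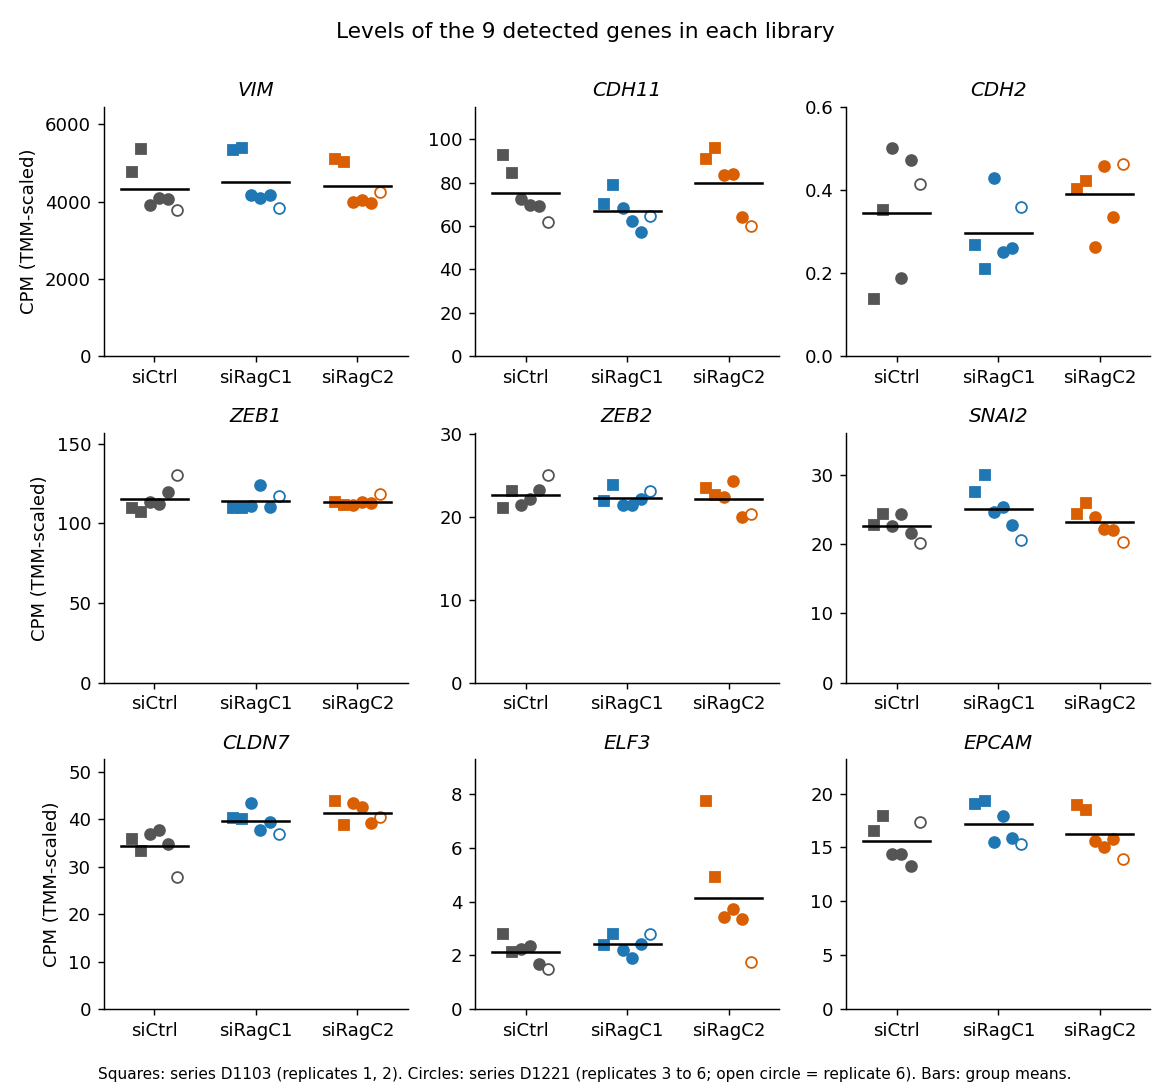
CPM in each library for the 9 genes with counts, with a linear axis from 0 in every panel; squares are series D1103, circles D1221, open circles replicate 6, and bars the group means. CLDN7 in siRagC2 lies above every siCtrl library, and ELF3 in siRagC2 runs from 1.73 CPM in replicate 6 to 7.75 CPM in replicate 1.

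CLDN7 ran from 27.9 to 37.7 CPM in siCtrl (median 35.3), from 36.9 to 43.4 CPM in siRagC1 (median 39.8) and from 38.8 to 43.9 CPM in siRagC2 (median 41.5). The lowest control was replicate 6. All siRagC2 libraries lay above all controls, while siRagC1 overlapped siCtrl at its low end. Such separation in either direction was seen for 1.14% of the 15307 tested genes with siRagC2 and for 0.830% with siRagC1. In both silenced groups CLDN7 was above the same-numbered control in 6 of 6 replicates, by a ratio of 1.00 to 1.32 with siRagC1 and of 1.13 to 1.46 with siRagC2. For siRagC2 the 6 of 6 follows from the separation of the groups and adds nothing to it. For siRagC1 the lowest ratio, in replicate 4, was 1.002, so those 2 libraries were nearly equal.

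The log2 fold change of CLDN7 was 0.27 ± 0.06 with siRagC2, a rise of 20.4% (adjusted p = 0.0211, edgeR). With siRagC1 it was 0.21 ± 0.06, or 15.3% (adjusted p = 0.0843, edgeR), which did not pass. The difference between the siRNAs was -0.06 ± 0.06 (siRagC1 minus siRagC2; 95% interval -0.18 to 0.06; adjusted p = 0.854, edgeR), so the data do not show that CLDN7 responded to only 1 of them. With the replicate number as a block, which takes the numbers to pair the libraries, CLDN7 passed with both. The values were 0.21 ± 0.05 (adjusted p = 0.0214, edgeR) and 0.27 ± 0.05 (adjusted p = 0.00414). The siRagC2 call was lost without siCtrl replicate 2 (log2 fold change 0.25, adjusted p = 0.0573), siRagC2 replicate 1 (0.25, 0.0703) or siRagC2 replicate 4 (0.26, 0.0583), in each case with a fold change near the full value. It was also lost without replicate number 1 (0.26, adjusted p = 0.128), 2 (0.27, 0.0701) or 5 (0.28, 0.0699). Within series the log2 fold change was alike but did not pass, at 0.26 ± 0.08 for D1103 (adjusted p = 0.0585, edgeR) and 0.27 ± 0.09 for D1221 (adjusted p = 0.347). Without a term for code series the adjusted p was 0.0913 for CLDN7 and 0.107 for ELF3, and 0.124% of all genes passed with siRagC2. Over all alternatives its adjusted p ran from 0.00204 to 0.347 and its log2 fold change from 0.21 to 0.30.

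ELF3 was a low transcript, with 333 counts in siCtrl, 523 in siRagC1 and 830 in siRagC2 over 6 libraries each. It ran from 1.502 to 2.81 CPM in siCtrl (median 2.18), from 1.89 to 2.81 CPM in siRagC1 (median 2.41) and from 1.73 to 7.75 CPM in siRagC2 (median 3.57). In siRagC2 the highest value was replicate 1 (7.75 CPM), replicate 2 had 4.93 CPM, replicates 3 to 5 lay between 3.36 and 3.71 CPM, and replicate 6 (1.73 CPM) fell inside the control range. Every siRagC2 library was above its same-numbered control, by a ratio of 1.15 to 2.76, whereas with siRagC1 this held for 3 of 6.

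The log2 fold change of ELF3 was 0.97 ± 0.19 with siRagC2 (95% interval 0.59 to 1.35; adjusted p = 0.0102, edgeR), a rise of 95.7%, and 0.21 ± 0.20 with siRagC1 (95% interval -0.18 to 0.61; adjusted p = 0.641). The difference between the siRNAs was -0.75 ± 0.18 (siRagC1 minus siRagC2; adjusted p = 0.280, edgeR) and did not pass. The siRagC2 call held without any single library (adjusted p from 0.00117 to 0.0391) and was lost without replicate number 1 (0.82, adjusted p = 0.0575) or 2 (0.89, adjusted p = 0.0681), both of series D1103. The D1103 libraries alone gave a log2 fold change of 1.36 ± 0.22 (adjusted p = 0.00165), and the D1221 libraries alone gave 0.68 ± 0.22 (adjusted p = 0.360). Over all alternatives the adjusted p ran from 5.57e-10, with no filter on low counts, to 0.360. The difference between series was -0.68 ± 0.35 (D1221 minus D1103; adjusted p = 0.735, edgeR). RRAGC was also further below control in D1103 than in D1221, and whether this bears on ELF3 was not tested.

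EPCAM, which encodes an adhesion protein of epithelial cells, ran from 13.2 to 17.9 CPM in siCtrl (median 15.5), from 15.3 to 19.3 CPM in siRagC1 (median 16.9) and from 13.9 to 18.9 CPM in siRagC2 (median 15.7). It was above the same-numbered control in 5 of 6 replicates with each siRNA, the exception being replicate 6 in both. The groups overlapped, and the log2 fold changes of 0.13 ± 0.06 (adjusted p = 0.286, edgeR) and 0.06 ± 0.06 (adjusted p = 0.685) did not pass.

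Read against the whole table, 312 of 15307 genes (2.04%) passed with siRagC1 and 495 (3.23%) with siRagC2, and between the siRNAs 0 genes (0%) passed. This last count was from edgeR, where 1187 genes had an unadjusted p under 0.05; DESeq2 called 18 higher and 11 lower, and limma-voom 0. The set's 0 of 9 with siRagC1 and 2 of 9 with siRagC2 stand beside these shares. The genes were chosen with earlier results of these data known, so such comparisons are no test of enrichment. At an unadjusted p under 0.05 with siRagC1 there were 4 of 9 (CLDN7, SNAI2 and EPCAM higher, CDH11 lower), beside 17.1% of all tested genes. With siRagC2, 2 of the 3 epithelial and 0 of the 6 mesenchymal genes did so, beside 2833 of 15307 tested genes. The 3 epithelial genes had a median log2 fold change of 0.21 with siRagC1 and 0.27 with siRagC2, and the 6 tested mesenchymal genes of -0.02 and 0.03, beside 0.01 and 0.00 over all tested genes. Both comparisons share their controls, so the likeness of their values is not independent. In separate tests of whether an effect differed between code series, 0% of genes passed with siRagC1 and 0% with siRagC2 (edgeR). Here 310 and 1019 genes had an unadjusted p under 0.05, among them 0 of the 9 members for either siRNA. DESeq2 and limma-voom also called 0 genes. With no filter on low counts, 4 of 31112 genes passed with siRagC1 and 61 with siRagC2, 0 of them members. In that setting 1 member had an unadjusted p under 0.05 with siRagC2.

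**Figure D3:**
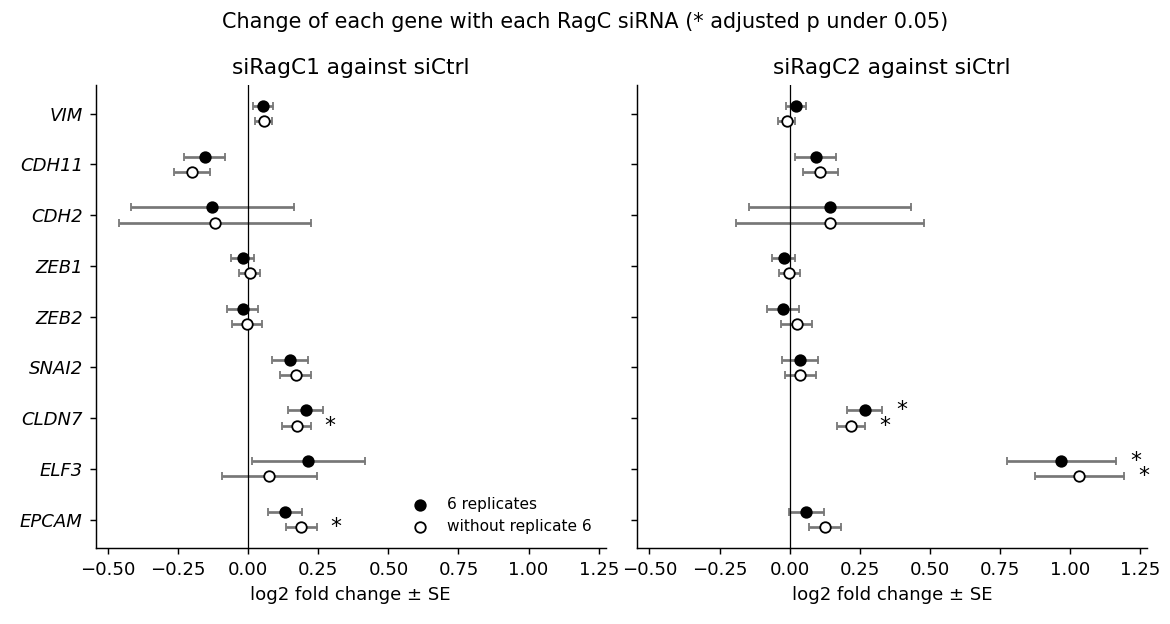
log2 fold change ± SE against siCtrl for the 9 tested genes, with 6 replicates per group (filled) and without replicate 6 of each group (open); asterisks mark adjusted p under 0.05. CLDN7 and ELF3 pass with siRagC2 in both settings, and CLDN7 and EPCAM pass with siRagC1 only without replicate 6, a difference between settings that was not itself tested.

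Replicate 6 of siCtrl held the lowest CLDN7, ELF3, VIM, CDH11 and SNAI2 and the highest ZEB1 and ZEB2 of its group, and siRagC2 replicate 6 held the lowest ELF3, EPCAM, CDH11 and SNAI2. In siRagC1, replicate 6 held the lowest CLDN7, VIM, SNAI2 and EPCAM. The fit was repeated without replicate 6 in every group. The background of called genes then rose to 7.61% with siRagC1, 6.64% with siRagC2 and 3.35% between the siRNAs, so each gain among the members stands beside a general gain in calls. With siRagC1, CLDN7 (0.17 ± 0.05, adjusted p = 0.0399, edgeR) and EPCAM (0.19 ± 0.06, adjusted p = 0.0408) passed. With siRagC2, CLDN7 (0.22 ± 0.05, adjusted p = 0.0118, edgeR) and ELF3 (1.03 ± 0.16, adjusted p = 0.000531) passed, and EPCAM did not (0.13 ± 0.06, adjusted p = 0.196). Across the alternatives for siRagC1 the adjusted p of CLDN7 ran from 0.0214 to 0.730 and that of EPCAM from 0.0408 to 0.816.

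Without replicate 6, CLDN7 in siRagC1 also lay above every control, and so did ELF3 and CLDN7 in siRagC2. Groups were then separate in either direction for 3.71% of tested genes with siRagC1 and 3.39% with siRagC2. Between the siRNAs, ELF3 was lower in siRagC1 than in siRagC2 by a log2 difference of -0.96 ± 0.15 (adjusted p = 0.000887, edgeR) with no overlap of the groups, and CDH11 by -0.31 ± 0.06 (adjusted p = 0.00931) with overlap. Over all libraries the groups of the siRNAs were separate for 0.229% of genes and for none of the members, and without replicate 6 for 2.44%. With all 6 replicates the CDH11 difference was -0.25 ± 0.07 (95% interval -0.39 to -0.10; adjusted p = 0.379, edgeR). Over the alternatives the adjusted p of this difference ran from 2.63e-06 to 1.00 for ELF3 and from 0.00351 to 1.00 for CDH11. With the replicate block and all libraries, 5.64% of genes passed with siRagC1 and 6.44% with siRagC2.

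Other genes of the same programme that were fixed by name moved as follows. CDH1, which encodes E-cadherin, averaged 0.891 ± 0.404 CPM in siCtrl, 1.13 ± 0.325 CPM in siRagC1 and 1.37 ± 0.350 CPM in siRagC2 (SD, n = 6), with log2 fold changes of 0.37 ± 0.26 (adjusted p = 0.492, edgeR) and 0.68 ± 0.26 (adjusted p = 0.155) that did not pass. SNAI1, which encodes the paralog SNAIL, averaged 3.06 ± 0.733, 3.05 ± 0.354 and 4.43 ± 1.33 CPM, with log2 fold changes of 0.00 ± 0.18 (adjusted p = 0.997) and 0.52 ± 0.18 (adjusted p = 0.114). FN1, which encodes fibronectin, averaged 812 ± 157, 887 ± 236 and 874 ± 293 CPM, and its groups overlapped. GRHL2 and ESRP1, which encode a transcription factor and a splicing factor of epithelial cells, averaged under 0.1 CPM in every group and were not tested. E-cadherin was thus scarce in all groups, as were these epithelial regulators, whereas the keratins KRT8 and KRT18 of simple epithelia stood at 532 and 270 CPM in siCtrl.

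Among 35 further genes of epithelial junctions, keratins and surface proteases, 32 were tested. With siRagC1, DSC2, which encodes a desmosomal cadherin, rose (0.29 ± 0.06, adjusted p = 0.0182, edgeR), and PKP2, which encodes the desmosomal plaque protein plakophilin-2, fell (-0.26 ± 0.05, adjusted p = 0.0187). With siRagC2, DSC2 (0.35 ± 0.06, adjusted p = 0.00468) and SPINT2, which encodes a serine protease inhibitor of epithelia (0.25 ± 0.06, adjusted p = 0.0168), rose and 0 fell. The list's medians were 0.08 and 0.15 on the log2 scale. Over all tested genes, 2.04% passed with siRagC1 and 3.23% with siRagC2. Of 20 claudins, 10 were tested, CLDN7 was the only one to pass with siRagC2 and 0 passed with siRagC1. CLDN4, a claudin common in epithelia, stood at 104 ± 15.5 CPM in siCtrl, 110 ± 7.76 CPM in siRagC1 and 105 ± 6.72 CPM in siRagC2.

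Of 30 further mesenchymal genes, 23 were tested: 0 passed with siRagC1, and COL1A1, which encodes a chain of type I collagen (0.75 ± 0.19, adjusted p = 0.0440, edgeR), and LOX, which encodes a collagen cross-linking oxidase (0.36 ± 0.10, adjusted p = 0.0456), rose with siRagC2. The list's medians were 0.07 and 0.10. COL1A1 ran from 22.5 to 72.8 CPM in siRagC2, against 22.9 to 37.4 CPM in siCtrl. Some genes with an epithelial and some with a mesenchymal label were thus among the 287 of 15307 tested genes that rose with siRagC2. The lists were chosen with earlier results known, so these counts are no test of either label. Of 17 further transcription factors of the transition, 12 were tested and 0 passed with either siRNA, with medians of -0.03 and -0.06. The same held for 12 of 12 corepressors used by ZEB and SNAI factors (medians -0.06 and -0.03), 7 tested of 17 epithelial regulators (medians -0.02 and -0.05; 10 below 1 CPM in every library) and 10 tested of 25 cadherins and catenins (medians -0.05 and 0.05). In TGF-beta signalling, 26 of 27 genes were tested. LTBP1, which encodes a latent TGF-beta binding protein, rose (0.35 ± 0.06 with each siRNA, adjusted p = 0.00559 and 0.00454, edgeR), and SMURF2, which encodes a ubiquitin ligase of the pathway, fell (-0.16 ± 0.04, adjusted p = 0.0483, and -0.17 ± 0.04, adjusted p = 0.0255). CCN1, a matricellular target gene, fell with siRagC1 (-0.38 ± 0.09, adjusted p = 0.0316), and TGFBI, a TGF-beta induced matrix gene, rose with siRagC2 (0.54 ± 0.11, adjusted p = 0.0152). The list's medians were 0.02 and 0.08.

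Markers of other cell types were summed per library. The summed level of 6 fibroblast markers ran from 28.5 to 47.6 CPM in siCtrl, from 28.9 to 43.7 CPM in siRagC1 and from 27.4 to 79.9 CPM in siRagC2. COL1A1 made up most of it. In siCtrl, PDGFRB averaged 6.78 ± 1.56 CPM (SD, n = 6), and DCN, LUM, COL3A1 and COL1A2 each averaged under 1 CPM. The 5 leukocyte markers summed to at most 1.41 CPM and the 2 adipocyte markers to at most 0.691 CPM in any library. The 3 endothelial markers found in the table summed to 4.31 to 5.51 CPM in siCtrl, 4.70 to 5.92 CPM in siRagC1 and 4.77 to 7.50 CPM in siRagC2. Nearly all of this was KDR, which encodes a VEGF receptor, at 4.61 ± 0.549, 5.38 ± 0.422 and 5.82 ± 0.889 CPM (SD, n = 6), with log2 fold changes of 0.22 ± 0.10 (adjusted p = 0.257, edgeR) and 0.32 ± 0.10 (adjusted p = 0.0818) that did not pass. CDH5 averaged under 0.05 CPM and VWF 0.101 CPM in siCtrl. The upper ends of the fibroblast and endothelial sums were higher in siRagC2, where ELF3 and CLDN7 rose. Of the fibroblast markers, COL1A1 averaged 30.2 CPM in siCtrl and 51.6 CPM in siRagC2, and PDGFRB 6.78 and 6.40 CPM. DCN averaged 0.0664 and 0.0608 CPM in the same groups, LUM 0.488 and 0.501, COL3A1 0.105 and 0.0412, and COL1A2 0.633 and 0.684. The part of these markers in the result was not tested. In bulk RNA, a change in the number of cells that express a gene and a change in RNA per cell cannot be told apart.

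Several members overlap genes on the opposite strand, and no source used here gives the strand setting of the counting, so reads of such pairs cannot be told apart where they overlap. CLDN7 overlaps ELP5, which stood at 41.4 CPM in siCtrl, 39.3 CPM in siRagC1 and 41.0 CPM in siRagC2, with log2 fold changes of -0.08 and -0.02. CLDN7 also overlaps AC003688.1, a protein-coding gene on the same strand, which had 0 counts over all libraries. Whether this overlap affected the counts of CLDN7 was not tested. ELF3 overlaps ELF3-AS1, which averaged 0.263, 0.373 and 0.375 CPM. VIM-AS1 averaged 16.7, 17.1 and 16.7 CPM in the same groups, and ZEB1-AS1 8.57, 8.07 and 8.19 CPM. TWIST1 overlaps AC003986.2, and both had 0 counts. Whether reads of this pair were lost in counting was not tested.

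For each member with a mean of at least 1 CPM, the genes of most similar pattern were taken by Pearson correlation of log2 CPM over the 18 libraries after the mean of each code series was removed, among 10872 genes (10873 for ELF3). These are the highest of many values and libraries share treatment and series, so they are given as a description. CLDN7 was closest to GDF15 (r = 0.951, Spearman rho = 0.909, and r = 0.872 without the 2 libraries farthest from the median) and CUL7 (r = 0.950, rho = 0.932, and 0.887). GDF15, which encodes a stress-induced cytokine, passed with both siRNAs (log2 fold changes 0.69 and 0.81, adjusted p = 0.0426 and 0.0154, edgeR). ELF3 was closest to H1-2 (r = 0.903, rho = 0.891, and 0.883), a linker histone gene, and MEST (r = 0.903, rho = 0.876, and 0.837). The closest gene was ATF6 for ZEB1 (r = 0.944), IRAK2 for SNAI2 (0.896), LRP3 for VIM (0.888), FILIP1L for CDH11 (0.830), CNOT7 for ZEB2 (0.827) and COMMD1 for EPCAM (0.806).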

How the data were processed

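Total RNA of 18 MDA-MB-231 libraries was sequenced, with 6 replicates per siRNA. The authors deposited 1 table of raw counts per Ensembl gene. The submitters' processing notes name GRCh37/hg19, the trimmer cutadapt 0.6.2 and the aligner STAR 2.7.6a. No source used here gives the counting tool, its strand setting or the annotation release. The 10 genes and all gene lists were chosen with earlier results of these data known. By rule the text names the 10 genes, RRAGC, CDH1, FN1, SNAI1, GRHL2, ESRP1, up to 4 genes past the threshold per list, and the genes of closest pattern per member (2 for the genes that rose, 1 for the others, though the rule gave 2). Cell type markers come from fixed lists. KRT8, KRT18, CLDN4 and the overlapping genes were named after their values were seen.

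The quasi-likelihood F test of edgeR 4.0.16 (R 4.3.3) was run on all 18 libraries with robust fitting, TMM scaling and terms for group and code series. After filterByExpr, 15307 genes were tested. A gene passed when its p, adjusted over all of them by Benjamini-Hochberg, was under 0.05. CPM used TMM-scaled library sizes. No source used here says what the code series stand for. The labels call the samples biological replicates but name no separate cultures, so the p-values reflect only how these samples vary, which may be partly technical. No 2 libraries of a group agreed within sampling noise (chi-square per gene 2.82 to 81.8).

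Deviations of same-numbered libraries from their group means correlated at 0.141 to 0.789 (siCtrl with siRagC1), 0.238 to 0.662 (siCtrl with siRagC2) and 0.343 to 0.723 (between siRNAs). Every pair exceeded 0.1, so the numbers were taken to pair the samples. These deviations include the shift between code series, and no correlations of differently numbered libraries are given here. The values therefore do not show pairing beyond that by code series.

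Alternatives were RLE factors, DESeq2 1.42.0, limma-voom (limma 3.58.1), no filter, a filter of 1 CPM in 6 libraries, the replicate block, no series term, only the groups compared, each series alone, and each replicate number or library left out. Alternatives of the test between series, and transcript lengths, were chosen after seeing the data. The procedure was tested on simulated counts, with changes placed in siRagC1. It recovered 58% of genes changed 1.2-fold and 96% of those changed 1.5-fold, and 13 of 189 calls were unchanged genes. Changes of the size seen for most members could thus be missed. Exon lengths came from GENCODE 29 (GRCh38), a build other than that of the counts. E-boxes were searched in the 250 bases before each start only, without the bases after it.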

Additional observations from a re-analysis of the deposited data

Results flagged for a closer look

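Of 27 sets of 6 libraries examined (9 genes in 3 groups), 1 held a library far from the others: ZEB1 in siRagC2, where replicate 6 at 119 CPM stood apart from the other 5 libraries between 111 and 114 CPM. The gap made up 0.676 of the whole range, above Dixon's 95% critical value for 6 samples. Chance alone would put about 1 in 20 such sets past that value.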

How the results depend on the processing

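The count of members that passed was 0 with siRagC1, 2 with siRagC2 and 0 between the siRNAs. With siRagC1 it was 1 with no filter on low counts, 1 with DESeq2 and 1 with the replicate block (CLDN7 each time), where 2.57%, 5.08% and 5.64% of all genes passed, and 0 to 2 when a replicate number was left out and 0 to 1 when a single library was. With siRagC2 it was 0 with no term for code series, 1 in D1103 alone (ELF3) and 0 in D1221 alone. In these settings 0.124%, 7.10% and 0.00666% of all genes passed. It was 0 to 2 without a replicate number and 1 to 2 without a library. Between the siRNAs it was 2 with no filter, 2 in D1103 alone (ELF3 and CDH11 both times, where 0.704% and 1.43% of all genes passed), 0 to 2 without a replicate number and 0 to 1 without a library. The block changed no other member's call. RLE factors, the 1 CPM filter, limma-voom and a fit of only the groups compared changed none of the 3 counts. Over all genes, calls with siRagC1 went from 216 higher and 96 lower to 643 and 535 without replicate 6, to 503 and 361 with the block and to 0 and 1 in D1221 alone; with siRagC2 they went from 287 and 208 to 618 and 531 in D1103 alone and to 1 and 0 in D1221 alone. The causes were not tested. No called member changed sign in any alternative. Sign turned only in uncalled values, and only for VIM, ZEB1, ZEB2 and the low-count CDH2. In D1103 alone the log2 fold changes were 0.015 (ZEB1) and 0.048 (ZEB2) with siRagC1, and -0.0034 (VIM), 0.049 (ZEB1) and 0.060 (ZEB2) with siRagC2. In D1221 alone CDH2 was at -0.18 with siRagC2. With a replicate number or library left out, ZEB1 ran from -0.055 to 0.013 and ZEB2 from -0.046 to 0.013 with siRagC1, and with siRagC2 VIM ran from -0.010 to 0.046, CDH2 from -0.024 to 0.36, ZEB1 from -0.039 to 0.011 and ZEB2 from -0.059 to 0.026. Depth limits CDH2, and TWIST1 had 0 counts, so no change of moderate size could be seen in either gene.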
